A study of Homo sapiens with 5 samples.

Results

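The comparison described here set 22Rv1 cells that made ESM1-NLS against 22Rv1 cells that made ESM1-NES, gene by gene, in RNA sequencing of total RNA. Its members were 12915 of the 26506 genes listed, those whose mean over the 2 libraries reached 1 FPKM, and it used 2 of the 5 samples. FPKM is the number of sequenced fragments scaled to transcript length and library size, as deposited by the authors. 22Rv1 is an established human prostate carcinoma line of epithelial origin. The groups were cells given lentivirus for ESM1-NLS, cells given lentivirus for ESM1-NES and cells given the control vector, called Vector-2, which the design names as the control of both tagged forms. All 3 were collected 72 hours after the virus was added, in medium with 10% serum, and each group was 1 library. The series title ties nuclear ESM1 to stemness and β-catenin, and the comparison of the tagged forms asks how the transcriptome differs with the compartment to which ESM1 is sent. A single library per group allows no test, so no p-value is given, and the part of culture, virus dose and library preparation in any difference cannot be told apart from that of the tag.

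ESM1, also known as endocan, is a small proteoglycan that endothelial cells secrete and that carries a dermatan sulphate chain. NLS and NES usually stand for nuclear localisation signal and nuclear export signal, which the labels leave unexplained. Importins bind a localisation signal and carry the protein through the nuclear pore, whereas the exportin XPO1 binds an export signal and carries its cargo to the cytoplasm, both under control of the GTPase Ran. β-catenin, encoded by CTNNB1, joins cadherins to the cytoskeleton at the membrane. When Wnt ligands block its destruction it enters the nucleus and switches on genes together with TCF and LEF factors.

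The transgene itself differed in level between the forms. ESM1 was at 2627 FPKM in ESM1-NLS, 3431 FPKM in ESM1-NES and listed at 0 FPKM in Vector-2, and took 0.530% of the reads in ESM1-NLS and 0.691% of those in ESM1-NES. The ratio of ESM1-NLS to ESM1-NES was 0.766, with an exact 95% counting interval of 0.759 to 0.772. Intervals of this kind follow every ratio below in parentheses and cover counting error only. Transcript counts cannot show where the protein was, so they check the transgene and not the tag. The form with the export tag thus had the more transgene transcript, and the part of that level in the results below was not tested. Total expected counts were 19975113 reads in ESM1-NLS, 18447256 reads in ESM1-NES and 24322216 reads in Vector-2. Luminal epithelial markers were present in both forms, with KRT8 at 496 FPKM in ESM1-NLS, against 466 FPKM in ESM1-NES, and KRT18 at 456 FPKM in ESM1-NLS, against 457 FPKM in ESM1-NES. The basal keratins KRT5 and KRT14 and the basal factor TP63 were at 0.08 FPKM or less in each.

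The forms differed little from one another gene by gene, and most in groups of genes with small shifts. Relative to genes of like length and base composition, genes of cholesterol synthesis, DNA replication and mitosis lay lower in ESM1-NLS, whereas p53 targets and immediate early genes lay higher. Wnt targets, β-catenin's partners and stemness genes lay near those like genes. The widest pattern followed transcript length. Groups are therefore given below relative to genes of like length and base composition, and the main ones as measured too.

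At the limit of 2-fold, 7 of 12915 genes were higher in ESM1-NLS, or 0.0542%, and 11 were lower, or 0.0852%. At 1.5-fold, 100 genes were higher, or 0.774%, and 46 were lower, or 0.356%. Of these, 94 higher genes, or 0.728% of all, and 36 lower genes, or 0.279%, had a counting interval that left out 1. In the 8925 protein-coding genes whose mean reached 5 FPKM, 30 were 1.5-fold higher, or 0.336%, 9 were 1.5-fold lower, or 0.101%, and 0 were 2-fold apart in either direction. The median log2 difference of all genes, ESM1-NLS minus ESM1-NES, was 0.06, with quartiles at -0.08 and 0.19. The split of 1.5-fold calls depended on the scaling, with 375 higher and 41 lower in TPM and 57 higher and 84 lower with median-of-ratios scaling of the counts. TPM multiplied every ratio of FPKM by 1.1, so that an FPKM ratio between 0.911 and 1 lies above 1 in TPM. Median-of-ratios scaling multiplied it by 0.941, so that a ratio between 1 and 1.06 lies below 1. The median of all genes was 0.19 in TPM, a shift of 0.13, and lists of genes are therefore read against that median or against like genes, where a change of scale moves them little.

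Transcript length ordered the difference across the whole transcriptome. Protein-coding genes of up to 1000 bases of effective length had a median log2 difference of -0.24, with 10.5% of 848 genes higher in ESM1-NLS. Those between 4000 and 8000 bases had a median of 0.18, with 90.2% of 3216 higher, and the 564 genes over 8000 bases had one of 0.21. Between these ends, the 2555 genes between 1000 and 2000 bases stood at -0.08 and the 4771 between 2000 and 4000 bases at 0.07. Short transcripts thus stood lower and long ones higher in ESM1-NLS, with sizeable shares of both in the middle classes. Across 11954 protein-coding genes Spearman's rho between effective length and the difference was 0.61, and between GC content and the difference -0.37, given as a description since all points share the same 2 libraries. Genes of up to 1000 bases took 12.2% of the reads in ESM1-NLS, against 14.8% in ESM1-NES and 12.9% in Vector-2. Genes over 4000 bases took 29.7% in ESM1-NLS, against 26.2% in ESM1-NES and 31.1% in Vector-2. On these shares ESM1-NLS lay nearer to Vector-2 than to ESM1-NES. Genes over 8000 bases took 4.69% in ESM1-NLS, against 4.05% in ESM1-NES and 5.66% in Vector-2, where ESM1-NLS lay nearer to ESM1-NES. The median of genes over 8000 bases was -0.18 for ESM1-NLS minus Vector-2 and -0.40 for ESM1-NES minus Vector-2, while that of genes up to 1000 bases was -0.04 for ESM1-NLS and 0.20 for ESM1-NES, in comparisons that share the Vector-2 library.

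**Figure D1:**
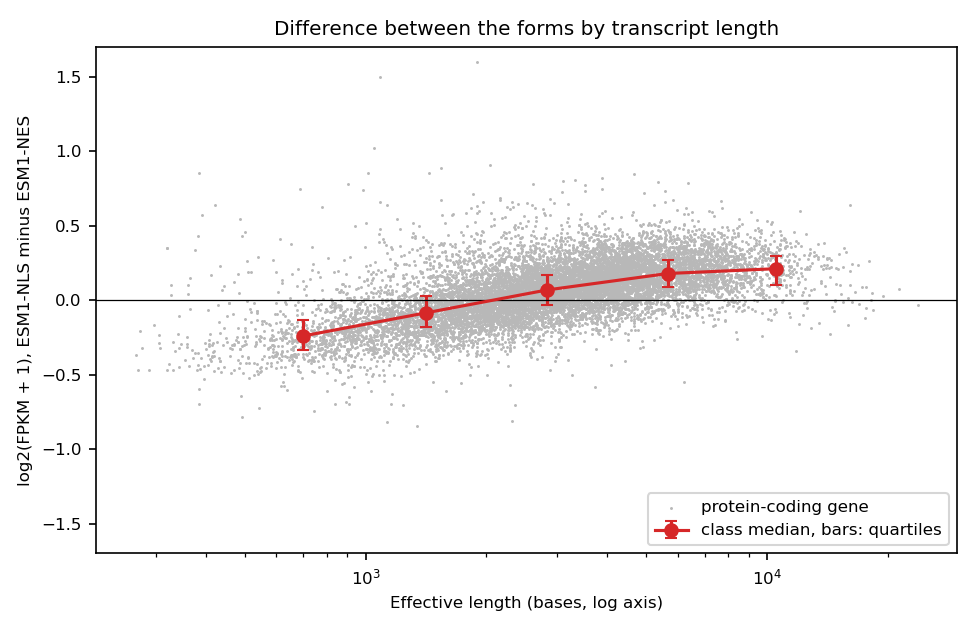
Each grey point is a protein-coding gene, with effective length in bases on a log axis and the difference of log2(FPKM + 1), ESM1-NLS minus ESM1-NES, on the vertical axis. Red points are the medians of 5 length classes with quartile bars, which run from -0.24 in genes of up to 1000 bases to 0.21 in genes over 8000 bases.

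For each gene the median of genes of like length and GC content was subtracted, with the genes divided into 10 classes by length and each of these into 10 by GC content. After this step 49.9% of 12616 genes with a GC value lay above 0 and 49.9% below, which is the background for the counts of members below. By length alone the shares were 49.7% above and 50% below. At 1.5-fold or more 0.745% lay above like genes and 0.0951% below. In the other background, the difference as measured, 62.2% of genes lay above 0 and 37.4% below in FPKM. A counting interval lay above 1 in 33% of genes and below 1 in 15.4%.

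**Figure D2:**
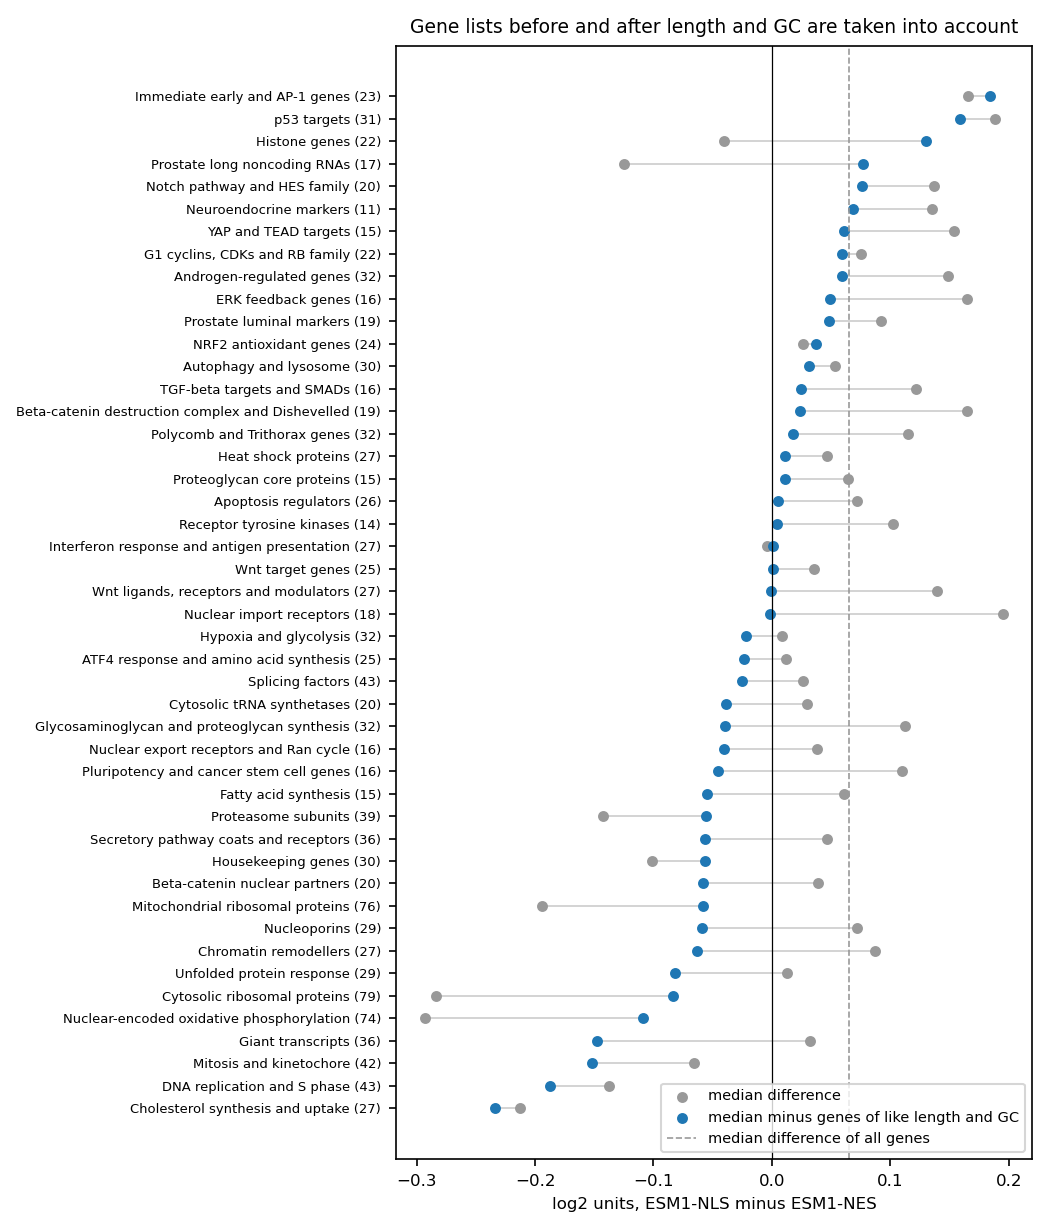
Each row is a gene list with 10 or more measured members, their number in parentheses, and the horizontal axis is log2 units, ESM1-NLS minus ESM1-NES. Grey points are medians as measured and blue points medians after subtraction of genes of like length and GC content. The dashed line is the median of all genes at 0.06. Cholesterol synthesis lies lowest after subtraction, at -0.23, and immediate early genes highest among the lists drawn, at 0.18.

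Cholesterol synthesis was the lowest list after subtraction. Cells make cholesterol from acetyl-CoA through mevalonate, squalene and lanosterol, and the transcription factor SREBF2 drives these genes when sterols in the endoplasmic reticulum run low, while INSIG1 holds it back. Of 27 measured genes, 25 lay below and 2 above genes of like length and GC content, with a median of -0.23. As measured, 24 lay below 0 and 3 above in FPKM, with 18 below and 8 above in TPM, and the list median lay -0.28 from the median of all genes on both scales. A counting interval lay below 1 in 18 of 27 genes and above 1 in 1. The list median was -0.11 for ESM1-NLS minus Vector-2 and 0.10 for ESM1-NES minus Vector-2, with Vector-2 shared, and Vector-2 lay between the forms in 11 of 27 genes. 0 of 27 reached 1.5-fold.

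The early enzymes differed among themselves. ACAT2, the thiolase that makes acetoacetyl-CoA, was at 38.9 FPKM in ESM1-NLS, 51.0 FPKM in ESM1-NES and 46.9 FPKM in Vector-2, giving a ratio of ESM1-NLS to ESM1-NES of 0.764 (0.706 to 0.827). HMGCS1, which joins acetoacetyl-CoA and acetyl-CoA, was at 20.1 FPKM in ESM1-NLS, 21.1 FPKM in ESM1-NES and 25.9 FPKM in Vector-2, giving a ratio of 0.953 (0.897 to 1.01). That ratio is nearer to 1 and exceeds 1 in TPM, and HMGCS1 lay -0.30 from like genes. In the mevalonate steps that follow, the kinase MVK was at 12.6 FPKM in ESM1-NLS, 16.6 FPKM in ESM1-NES and 12.5 FPKM in Vector-2, giving a ratio of 0.761 (0.674 to 0.857). The next kinase, PMVK, was at 54.8 FPKM in ESM1-NLS, 69.8 FPKM in ESM1-NES and 56.4 FPKM in Vector-2, giving a ratio of 0.786 (0.730 to 0.845). FDPS, which makes farnesyl pyrophosphate, was at 163 FPKM in ESM1-NLS, 204 FPKM in ESM1-NES and 173 FPKM in Vector-2, giving a ratio of 0.801 (0.768 to 0.835). In these 3 genes ESM1-NES was the highest library and ESM1-NLS lay close to Vector-2.

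The later steps were lower in ESM1-NLS as well. FDFT1, which makes squalene, was at 180.2 FPKM in ESM1-NLS, 214 FPKM in ESM1-NES and 204 FPKM in Vector-2, giving a ratio of 0.841 (0.816 to 0.867). EBP, the isomerase that moves a double bond in the sterol ring, was at 60.0 FPKM in ESM1-NLS, 85.3 FPKM in ESM1-NES and 71.5 FPKM in Vector-2, giving a ratio of 0.703 (0.654 to 0.757) and the lowest of the list. MSMO1, a sterol methyl oxidase, was at 54.2 FPKM in ESM1-NLS, 66.8 FPKM in ESM1-NES and 70.2 FPKM in Vector-2, giving a ratio of 0.813 (0.768 to 0.860). SC5D, a desaturase of the same branch, went the other way with 10.2 FPKM in ESM1-NLS, 8.53 FPKM in ESM1-NES and 11.4 FPKM in Vector-2, giving a ratio of 1.19 (1.1 to 1.29), but lay -0.06 from like genes.

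Among the regulators, INSIG1 was at 16.6 FPKM in ESM1-NLS, 23.4 FPKM in ESM1-NES and 25.4 FPKM in Vector-2, giving a ratio of 0.709 (0.651 to 0.772), and its difference from like genes was -0.59. SREBF1, the relative of SREBF2 that mainly drives fatty acid genes, was at 42.6 FPKM in ESM1-NLS, 53.2 FPKM in ESM1-NES and 45.3 FPKM in Vector-2, giving a ratio of 0.80 (0.768 to 0.834). SREBF2 was at 63.0 FPKM in ESM1-NLS, 66.6 FPKM in ESM1-NES and 65.9 FPKM in Vector-2, giving a ratio of 0.946 (0.914 to 0.979) that lies above 1 in TPM. SCAP, which escorts both factors to the Golgi, was at 29.2 FPKM in ESM1-NLS, 28.0 FPKM in ESM1-NES and 23.99 FPKM in Vector-2, giving a ratio of 1.04 (0.985 to 1.11). The counting intervals of INSIG1, SREBF1 and SREBF2 left out 1, and that of SCAP did not.

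Fatty acid synthesis, which SREBF1 shares with the sterol pathway, was mixed. As measured, 9 of 15 genes lay above 0 and 6 below in FPKM, with a median of 0.06, while 12 lay below and 3 above like genes, with a median of -0.06. SCD, the desaturase that makes oleate, was at 68.1 FPKM in ESM1-NLS, 81.2 FPKM in ESM1-NES and 110.0 FPKM in Vector-2, giving a ratio of 0.839 (0.813 to 0.866). FASN, the fatty acid synthase, was at 89.4 FPKM in ESM1-NLS, 107 FPKM in ESM1-NES and 109 FPKM in Vector-2, giving a ratio of 0.833 (0.815 to 0.852). ELOVL5, which lengthens polyunsaturated fatty acids, went the other way, at 156 FPKM in ESM1-NLS, 121 FPKM in ESM1-NES and 150.5 FPKM in Vector-2, giving a ratio of 1.29 (1.25 to 1.33).

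Promoters of the sterol genes are shown because nearly all of the list lay on the same side. RefSeq promoters of GRCh38.p14, from 250 bases before to 50 after the start, matched 20 of the 27 genes. The sterol regulatory element core CACCCCAC, on either strand, was in 1 of 20, or 5%, against 2.44% of 10263 promoters of the genes compared and 2.72% of all 27305 promoters. No other spelling of that core was searched for, so sterol promoters without a match may still hold a sterol regulatory element. The CCAAT box CCAAT, on either strand, was in 15 of 20, or 75%, against 37.6% of promoters of the genes compared. The 1 promoter with the core belongs to SREBF2, at chr22:41832855-41833154 on the plus strand, and that of EBP, the lowest gene, lies at chrX:48521558-48521857 on the plus strand. Capitals mark the core and the CCAAT box, which reads ATTGG when on the other strand.
SREBF2: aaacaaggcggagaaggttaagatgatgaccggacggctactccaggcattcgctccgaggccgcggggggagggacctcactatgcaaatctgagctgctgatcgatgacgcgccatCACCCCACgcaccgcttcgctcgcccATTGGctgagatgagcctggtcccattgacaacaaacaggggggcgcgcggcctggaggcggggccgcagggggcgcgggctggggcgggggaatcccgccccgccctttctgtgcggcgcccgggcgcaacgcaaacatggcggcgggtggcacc
EBP: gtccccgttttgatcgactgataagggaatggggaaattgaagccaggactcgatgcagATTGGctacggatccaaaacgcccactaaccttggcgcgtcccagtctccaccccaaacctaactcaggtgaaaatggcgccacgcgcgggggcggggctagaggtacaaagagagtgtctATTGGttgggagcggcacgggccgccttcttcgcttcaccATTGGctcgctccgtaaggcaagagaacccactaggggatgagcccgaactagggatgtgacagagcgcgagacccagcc
The 15 genes with a CCAAT box had a median log2 difference of -0.21 and those without one -0.22, so the letters did not divide the list.

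Genes of DNA replication were lower in ESM1-NLS too. These genes load and fire origins, make deoxynucleotides and copy the strands, and E2F factors raise them as cells pass from G1 into S phase. Of 43 genes 42 lay below and 1 above genes of like length and GC content, with a median of -0.19. As measured, 35 lay below 0 and 8 above in FPKM, with 23 below and 20 above in TPM, and the median lay -0.20 from that of all genes in FPKM and -0.21 in TPM. A counting interval lay below 1 in 27 genes and above 1 in 1, RRM1, and 0 of 43 reached 1.5-fold. The list median was -0.13 for ESM1-NLS minus Vector-2 and 0.02 for ESM1-NES minus Vector-2, with Vector-2 shared. A lower share of cells in S phase and less of each transcript per cell cannot be told apart in bulk RNA.

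Origin factors stood at the lower end. GINS2, a subunit of the replicative helicase, was at 49.2 FPKM in ESM1-NLS, 68.4 FPKM in ESM1-NES and 59.3 FPKM in Vector-2, giving a ratio of 0.718 (0.663 to 0.778). CDC45, its partner, was at 27.6 FPKM in ESM1-NLS, 34.4 FPKM in ESM1-NES and 29.5 FPKM in Vector-2, giving a ratio of 0.80 (0.736 to 0.870). ORC6, of the origin recognition complex, was at 25.6 FPKM in ESM1-NLS, 32.5 FPKM in ESM1-NES and 30.9 FPKM in Vector-2, giving a ratio of 0.787 (0.714 to 0.865). In all 3 genes ESM1-NLS was the lowest library. The MCM helicase subunits lay nearer to 1, from MCM7 at 0.878 (0.853 to 0.903) to MCM4 at 0.975 (0.939 to 1.01), and those between 0.911 and 1 lie above 1 in TPM. MCM2, MCM3, MCM4, MCM5, MCM6 and MCM7 were between -0.28 and -0.17 from like genes.

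At the fork, PCNA, the sliding clamp, was at 229 FPKM in ESM1-NLS, 268 FPKM in ESM1-NES and 266 FPKM in Vector-2, giving a ratio of 0.856 (0.825 to 0.887). RPA3, the small subunit that coats single strands, was at 30.1 FPKM in ESM1-NLS, 41.2 FPKM in ESM1-NES and 37.3 FPKM in Vector-2, giving a ratio of 0.731 (0.676 to 0.790). The large subunit RPA1 was at 44.8 FPKM in ESM1-NLS, 44.2 FPKM in ESM1-NES and 45.2 FPKM in Vector-2, giving a ratio of 1.01 (0.967 to 1.06). Of the enzymes that make DNA precursors, TK1, the S phase thymidine kinase, was at 64.1 FPKM in ESM1-NLS, 83.0 FPKM in ESM1-NES and 62.6 FPKM in Vector-2, giving a ratio of 0.772 (0.726 to 0.820). The subunits of ribonucleotide reductase split, with RRM2 at a ratio of 0.935 (0.890 to 0.982) and RRM1 at 1.05 (1.01 to 1.1). E2F1 was at 23.7 FPKM in ESM1-NLS, 29.1 FPKM in ESM1-NES and 25.5 FPKM in Vector-2, giving a ratio of 0.815 (0.755 to 0.881). CCNE1, the cyclin that opens S phase, was the 1 gene above like genes, at 5.34 FPKM in ESM1-NLS, 4.98 FPKM in ESM1-NES and 4.69 FPKM in Vector-2, giving a ratio of 1.07 (0.870 to 1.32).

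**Figure D3:**
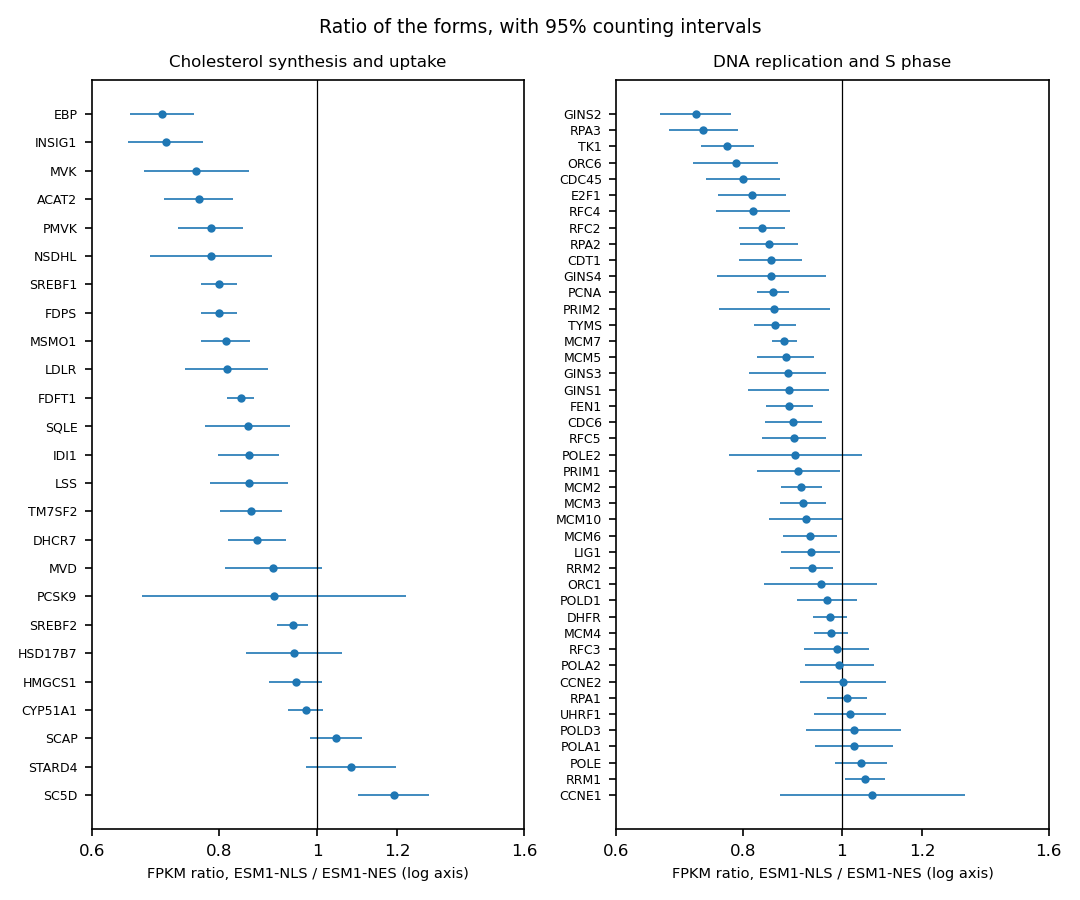
Points are ratios of FPKM, ESM1-NLS over ESM1-NES, on a log axis with bars for the exact 95% counting interval, for members of the cholesterol list on the left and of the DNA replication list on the right. EBP at 0.703 and GINS2 at 0.718 stand lowest, and most members of both lists stand left of 1.

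Mitosis genes followed the same direction less far. These genes build the spindle and kinetochore and peak in G2 and M phase. Of 42 genes 41 lay below and 1 above like genes, with a median of -0.15. As measured, the direction of the list turned with the scale, with 29 below 0 and 13 above in FPKM and 15 below and 27 above in TPM. The median lay -0.13 from that of all genes on either scale. Both forms lay under Vector-2 in median, at -0.14 for ESM1-NLS and -0.09 for ESM1-NES, with Vector-2 above both forms in 28 of 42 genes. MKI67, the Ki-67 antigen of cycling cells, was at 11.4 FPKM in ESM1-NLS, 14.8 FPKM in ESM1-NES and 21.4 FPKM in Vector-2, giving a ratio of 0.774 (0.735 to 0.815). Its transcript of 11783 bases belongs to a length class that was higher in ESM1-NLS, and it lay -0.54 from like genes. CDC20, which activates the anaphase-promoting complex, was at 107 FPKM in ESM1-NLS, 138 FPKM in ESM1-NES and 104 FPKM in Vector-2, giving a ratio of 0.775 (0.741 to 0.812). CCNB1, cyclin B1, was at 90.2 FPKM in ESM1-NLS, 109 FPKM in ESM1-NES and 97.0 FPKM in Vector-2, giving a ratio of 0.828 (0.792 to 0.866). BIRC5, which encodes survivin, was at 50.4 FPKM in ESM1-NLS, 64.7 FPKM in ESM1-NES and 58.5 FPKM in Vector-2, giving a ratio of 0.779 (0.739 to 0.821). KIF14, a kinesin of cytokinesis with a long transcript, was highest at 5.68 FPKM in ESM1-NLS, 4.64 FPKM in ESM1-NES and 7.11 FPKM in Vector-2, giving a ratio of 1.22 (1.1 to 1.36), yet lay -0.04 from like genes.

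Promoters of these lists are shown because their genes share well-known cell cycle elements. The E2F site TTTCCCGC, on either strand, was in 10 of 35 replication promoters, or 28.6%, against 2.66% of promoters of the genes compared. A second form, TTTGGCGC, was in 7 of 35, or 20%, against 1.15%. The cell cycle homology element TTTGAA was in 22 of 36 mitosis promoters, or 61.1%, against 9.18%. GINS2 lies at chr16:85688905-85689204 on the minus strand, E2F1 at chr20:33686336-33686635 on the minus strand, CDC20 at chr1:43358731-43359030 on the plus strand and MKI67 at chr10:128126374-128126673 on the minus strand. Capitals mark the E2F sites in the first pair and TTTGAA in the second pair, read as GCGGGAAA or TTCAAA where on the other strand.
GINS2: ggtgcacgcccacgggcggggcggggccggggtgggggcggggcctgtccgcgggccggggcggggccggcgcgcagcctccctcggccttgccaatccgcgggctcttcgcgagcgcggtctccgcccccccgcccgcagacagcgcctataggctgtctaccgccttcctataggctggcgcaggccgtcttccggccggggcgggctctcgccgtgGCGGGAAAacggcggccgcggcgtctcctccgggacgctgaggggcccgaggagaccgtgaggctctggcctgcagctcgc
E2F1: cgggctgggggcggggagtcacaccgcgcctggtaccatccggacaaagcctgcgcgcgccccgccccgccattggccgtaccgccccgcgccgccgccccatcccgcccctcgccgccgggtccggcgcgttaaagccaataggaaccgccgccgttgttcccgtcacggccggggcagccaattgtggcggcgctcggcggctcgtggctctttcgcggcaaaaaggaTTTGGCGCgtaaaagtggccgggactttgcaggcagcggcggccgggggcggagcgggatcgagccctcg
CDC20: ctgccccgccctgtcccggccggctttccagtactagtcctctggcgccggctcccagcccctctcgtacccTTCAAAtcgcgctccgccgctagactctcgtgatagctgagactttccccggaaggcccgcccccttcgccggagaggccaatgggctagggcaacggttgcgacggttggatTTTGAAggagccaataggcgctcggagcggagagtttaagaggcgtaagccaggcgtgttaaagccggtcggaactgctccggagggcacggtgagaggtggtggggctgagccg
MKI67: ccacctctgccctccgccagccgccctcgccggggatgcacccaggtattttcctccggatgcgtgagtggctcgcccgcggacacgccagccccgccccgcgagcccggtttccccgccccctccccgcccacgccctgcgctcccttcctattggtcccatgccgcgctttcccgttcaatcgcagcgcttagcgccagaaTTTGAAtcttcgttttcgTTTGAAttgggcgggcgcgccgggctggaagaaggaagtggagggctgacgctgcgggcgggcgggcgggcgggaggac
Among replication genes, those with TTTCCCGC had a median log2 difference of -0.18 and those without it -0.14. Among mitosis genes, those with TTTGAA had a median of -0.06 and those without it -0.08. Neither element divided its list by more than 0.05.

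Genes of the G1 decision did not follow replication as a group. Of 22 genes of cyclins, kinases, their inhibitors and the RB family, 14 lay above and 8 below like genes, with a median of 0.06. CCND1, cyclin D1, was at 554 FPKM in ESM1-NLS, 492 FPKM in ESM1-NES and 560 FPKM in Vector-2, giving a ratio of 1.12 (1.11 to 1.14). CDKN1B, the inhibitor p27, was at 67.8 FPKM in ESM1-NLS, 58.6 FPKM in ESM1-NES and 66.7 FPKM in Vector-2, giving a ratio of 1.16 (1.1 to 1.22). CDK4, which partners cyclin D1, was at 179.7 FPKM in ESM1-NLS, 203 FPKM in ESM1-NES and 172 FPKM in Vector-2, giving a ratio of 0.885 (0.856 to 0.915).

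Targets of p53, which halt the cycle or start cell death after damage, stood on the higher side. Of 31 genes 26 lay above and 5 below genes of like length and GC content, with a median of 0.16. As measured, 27 lay above 0 in FPKM, 29 in TPM and 24 with median-of-ratios scaling, and the median lay 0.12 from that of all genes in FPKM. The list median was 0.16 for ESM1-NLS minus Vector-2 and -0.06 for ESM1-NES minus Vector-2, in comparisons that share Vector-2. 1 of 31 reached 1.5-fold, TP53INP1, which promotes autophagy and cell death, at 31.1 FPKM in ESM1-NLS, 19.4 FPKM in ESM1-NES and 26.8 FPKM in Vector-2. Its difference from like genes was 0.41.

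Cell cycle inhibitors of the list were among those higher in ESM1-NLS. CDKN1A, the inhibitor p21, was at 246 FPKM in ESM1-NLS, 218 FPKM in ESM1-NES and 196 FPKM in Vector-2, giving a ratio of 1.13 (1.1 to 1.16). GADD45A, a damage-induced growth arrest protein, was at 57.8 FPKM in ESM1-NLS, 45.3 FPKM in ESM1-NES and 51.2 FPKM in Vector-2, giving a ratio of 1.28 (1.18 to 1.38). BTG2, an antiproliferative factor, was at 57.2 FPKM in ESM1-NLS, 44.6 FPKM in ESM1-NES and 47.4 FPKM in Vector-2, giving a ratio of 1.28 (1.21 to 1.36). ESM1-NLS was the highest library for each of these genes. GDF15, a secreted stress cytokine, was at 54.0 FPKM in ESM1-NLS, 41.5 FPKM in ESM1-NES and 39.5 FPKM in Vector-2, giving a ratio of 1.30 (1.19 to 1.42), against short like genes that mostly lay below 1, so that its difference from them was 0.49. EDA2R, a death receptor of the TNF family, was at 9.71 FPKM in ESM1-NLS, 6.80 FPKM in ESM1-NES and 8.34 FPKM in Vector-2, giving a ratio of 1.43 (1.26 to 1.62).

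Feedback and death genes were less uniform. MDM2, the ligase that destroys p53, was at 32.9 FPKM in ESM1-NLS, 26.4 FPKM in ESM1-NES and 32.9 FPKM in Vector-2, giving a ratio of 1.24 (1.19 to 1.30), and lay 0.03 from like genes. BBC3, which encodes PUMA, had a ratio of 1.11 (1.02 to 1.21) and PMAIP1, which encodes NOXA, one of 1.24 (1.07 to 1.43). BAX, the effector of the mitochondrial pathway, had a ratio of 0.958 (0.878 to 1.04) and lay 0.20 above like genes. FAS, the death receptor, was at 7.44 FPKM in ESM1-NLS, 8.24 FPKM in ESM1-NES and 8.10 FPKM in Vector-2, giving a ratio of 0.903 (0.783 to 1.04).

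Immediate early genes, the transcription factors and regulators that cells switch on within minutes of a growth signal, had a median of 0.18 after subtraction, the highest among lists with 10 or more measured genes. Of 23 measured genes 22 lay above and 1 below like genes, and 20 lay above 0 as measured in FPKM, 22 in TPM and 19 with median-of-ratios scaling. The list median was 0.15 for ESM1-NLS minus Vector-2 and -0.04 for ESM1-NES minus Vector-2, which share Vector-2. FOS, the AP-1 subunit, was at 3.05 FPKM in ESM1-NLS, 1.77 FPKM in ESM1-NES and 2.62 FPKM in Vector-2, giving a ratio of 1.72 (1.27 to 2.35). EGR1, a zinc finger factor induced by ERK, was at 6.99 FPKM in ESM1-NLS, 4.62 FPKM in ESM1-NES and 4.90 FPKM in Vector-2, giving a ratio of 1.51 (1.29 to 1.77). On the log2(FPKM + 1) scale, which understates low genes, 0 of 23 reached 1.5-fold. JUN was at 30.8 FPKM in ESM1-NLS, 27.3 FPKM in ESM1-NES and 31.1 FPKM in Vector-2, giving a ratio of 1.13 (1.05 to 1.2). JUNB was at 38.3 FPKM in ESM1-NLS, 33.1 FPKM in ESM1-NES and 33.3 FPKM in Vector-2, giving a ratio of 1.16 (1.07 to 1.26). MYC was at 129 FPKM in ESM1-NLS, 129.6 FPKM in ESM1-NES and 113 FPKM in Vector-2, giving a ratio of 0.995 (0.959 to 1.03). The feedback genes of the ERK pathway, with DUSP4 at a ratio of 1.36 (1.21 to 1.54), had 14 of 16 members above like genes and a median of 0.05. Only 1 exact spelling of the serum response element was searched for. That spelling was in 1 of 19 immediate early promoters, or 5.26%, that of EGR1, against 0.0487% of promoters of the genes compared. Other spellings were not counted, so promoters without a match may still hold the element.

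**Figure D4:**
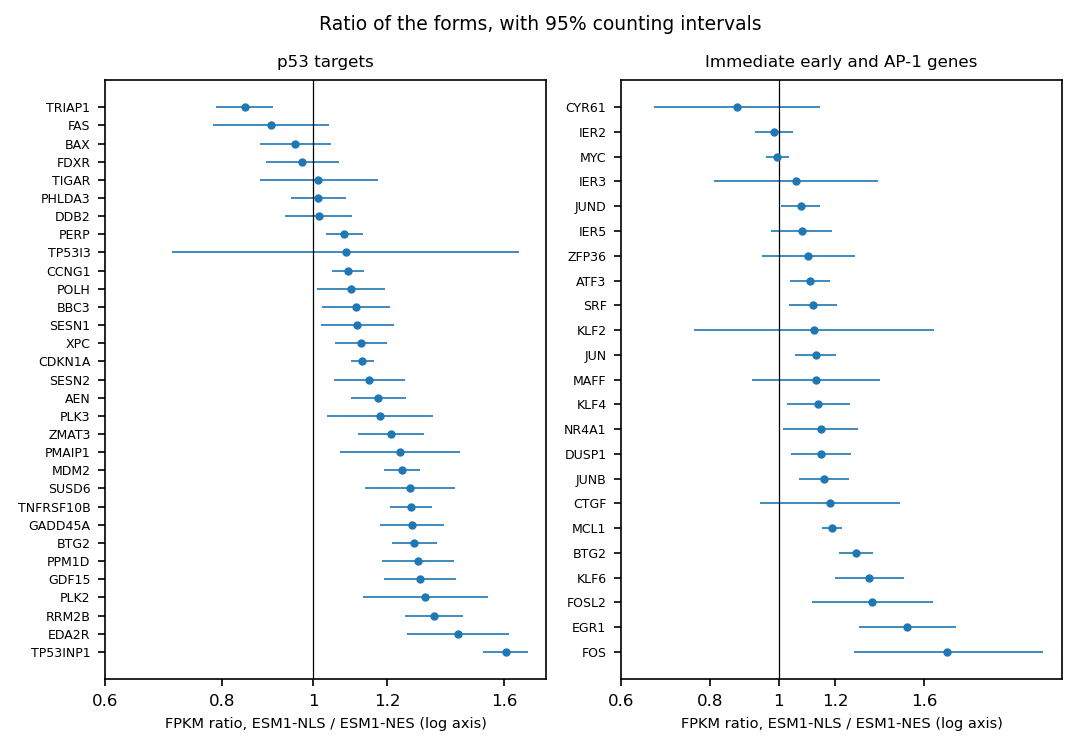
Points are ratios of FPKM, ESM1-NLS over ESM1-NES, on a log axis with bars for the exact 95% counting interval, for each measured member of the p53 list on the left and of the immediate early list on the right. TP53INP1 at 1.61 and FOS at 1.72 stand highest, and most members of both lists stand right of 1.

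The core of β-catenin signalling was close to level between the forms. CTNNB1 was at 141 FPKM in ESM1-NLS, 129 FPKM in ESM1-NES and 139 FPKM in Vector-2, giving a ratio of 1.09 (1.06 to 1.12), and lay -0.04 from like genes. Of 25 measured Wnt target genes 14 lay above and 11 below like genes, with a median of 0.00, and 0 reached 1.5-fold. AXIN2, the feedback target that reports pathway activity, was at 1.39 FPKM in ESM1-NLS, 1.22 FPKM in ESM1-NES and 1.25 FPKM in Vector-2, giving a ratio of 1.14 (0.861 to 1.51). LEF1, both a target and the DNA-binding partner of β-catenin, was at 7.11 FPKM in ESM1-NLS, 6.96 FPKM in ESM1-NES and 7.06 FPKM in Vector-2, giving a ratio of 1.02 (0.895 to 1.17). For neither was a difference detectable at this depth. NOTUM, RNF43 and DKK1, which damp the pathway, had ratios of 0.912 (0.724 to 1.15), 1.03 (0.941 to 1.12) and 0.987 (0.817 to 1.19). SOX4, a target with a long transcript, stood highest of those above 5 FPKM, at 39.0 FPKM in ESM1-NLS, 29.8 FPKM in ESM1-NES and 41.6 FPKM in Vector-2, giving a ratio of 1.31 (1.24 to 1.37), and 0.26 from like genes.

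Components upstream and beside β-catenin mostly went with their length. The 27 measured ligands, receptors and modulators had a median of 0.14 as measured and 0.00 from like genes, with 13 above and 14 below. The co-receptor LRP6, with 10035 bases of transcript, was at 6.11 FPKM in ESM1-NLS, 4.61 FPKM in ESM1-NES and 7.69 FPKM in Vector-2, giving a ratio of 1.33 (1.21 to 1.45), and lay 0.12 from like genes. Ligands were low in both forms, led by WNT10B at 7.96 FPKM in ESM1-NLS, against 9.19 FPKM in ESM1-NES, a ratio of 0.866 (0.749 to 1.0). The 19 genes of the destruction complex and Dishevelled had 14 above and 5 below like genes and a median of 0.02. APC, its scaffold of 10693 bases, was at 3.97 FPKM in ESM1-NLS, 2.93 FPKM in ESM1-NES and 4.41 FPKM in Vector-2, giving a ratio of 1.35 (1.22 to 1.51), and lay 0.09 from like genes. GSK3B, its kinase, was at 15.4 FPKM in ESM1-NLS, 12.9 FPKM in ESM1-NES and 17.0 FPKM in Vector-2, and its difference from like genes was 0.00. TNKS2, a tankyrase that marks AXIN for destruction, stood highest of the complex at 20.1 FPKM in ESM1-NLS, 14.7 FPKM in ESM1-NES and 19.6 FPKM in Vector-2, giving a ratio of 1.37 (1.29 to 1.46). The 20 nuclear partners of β-catenin had a median of -0.06 from like genes, with 6 above and 14 below. The coactivators CREBBP and EP300 had ratios of 0.949 (0.871 to 1.03) and 0.978 (0.911 to 1.05), and both lay lower than like genes, by -0.24 and -0.25. CTNNBIP1, an inhibitor of β-catenin's binding to TCF, was at 14.9 FPKM in ESM1-NLS, 16.9 FPKM in ESM1-NES and 14.8 FPKM in Vector-2, giving a ratio of 0.879 (0.80 to 0.967).

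Stemness genes as a group lay near like genes. Of 16 measured genes 6 lay above and 10 below, with a median of -0.05, although 13 lay above 0 as measured. CD44 was at 25.4 FPKM in ESM1-NLS, 24.5 FPKM in ESM1-NES and 25.9 FPKM in Vector-2, giving a ratio of 1.04 (0.980 to 1.1). ALDH1A1, an aldehyde dehydrogenase used to sort stem-like cells, was at 16.7 FPKM in ESM1-NLS, 15.4 FPKM in ESM1-NES and 13.8 FPKM in Vector-2, giving a ratio of 1.08 (0.974 to 1.2). BMI1, a Polycomb protein of self-renewal, was at 11.9 FPKM in ESM1-NLS, 9.05 FPKM in ESM1-NES and 14.4 FPKM in Vector-2, giving a ratio of 1.31 (1.18 to 1.47). The pluripotency factors were near the floor of the data. SOX2 was at 1.07 FPKM in ESM1-NLS, 0.80 FPKM in ESM1-NES and 0.99 FPKM in Vector-2, giving a ratio of 1.34 (0.858 to 2.11). POU5F1, which has expressed pseudogene copies that can take its reads, was at 1.57 FPKM in ESM1-NLS, 1.26 FPKM in ESM1-NES and 1.95 FPKM in Vector-2, giving a ratio of 1.25 (0.838 to 1.89). NANOG was at 0.10 FPKM in ESM1-NLS, against 0.11 FPKM in ESM1-NES, under the limit for a member. The 32 Polycomb and Trithorax genes had 20 above and 12 below like genes and a median of 0.02.

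Transport genes carry cargo with signals of the tagged kinds. The 18 import receptors had a median of 0.20 as measured and -0.0017 from like genes, with 9 above and 9 below. KPNB1, the main importin β, was at 111 FPKM in ESM1-NLS, 96.4 FPKM in ESM1-NES and 113 FPKM in Vector-2, giving a ratio of 1.15 (1.11 to 1.19), and lay 0.03 from like genes. TNPO1, an importin for RNA-binding proteins, was at 34.4 FPKM in ESM1-NLS, 24.1 FPKM in ESM1-NES and 36.8 FPKM in Vector-2, giving a ratio of 1.43 (1.37 to 1.49), and 0.25 from like genes. XPO1, the receptor for export signals, was at 72.0 FPKM in ESM1-NLS, 66.6 FPKM in ESM1-NES and 77.1 FPKM in Vector-2, giving a ratio of 1.08 (1.04 to 1.12), and lay -0.12 from like genes. RAN was at 196 FPKM in ESM1-NLS, 223 FPKM in ESM1-NES and 203 FPKM in Vector-2, giving a ratio of 0.880 (0.856 to 0.905). The 16 export and Ran cycle genes had 4 above and 12 below like genes and a median of -0.04, and the 29 nucleoporins had 8 above and 21 below and a median of -0.06. The list named for long noncoding RNAs kept in the nucleus, which also held LINC00657 and TUG1, was higher as measured. In it 7 of 7 genes lay above 0 on each scale, with a median of 0.31. Where these RNAs lay in the cell was not measured, and not every member need be nuclear. From like genes their median was 0.12, with 6 above and 1 below. Their medians were -0.11 for ESM1-NLS minus Vector-2 and -0.44 for ESM1-NES minus Vector-2, with Vector-2 shared and above both forms in 6 of 7. NEAT1, the scaffold of paraspeckles, led them at 43 FPKM in ESM1-NLS, 25.9 FPKM in ESM1-NES and 35.7 FPKM in Vector-2, giving a ratio of 1.66 (1.56 to 1.76), and was the 1 gene of the list past 1.5-fold. MALAT1, of nuclear speckles, was at 17.7 FPKM in ESM1-NLS, 14.04 FPKM in ESM1-NES and 21.9 FPKM in Vector-2, giving a ratio of 1.26 (1.19 to 1.33), and lay 0.03 from like genes.

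Genes that androgen regulates in luminal prostate cells lay slightly above like genes. Of 32 measured genes of this kind 20 lay above and 12 below like genes, with a median of 0.06. As measured in FPKM, 23 lay above 0 and 9 below, against 62.2% of all genes above 0, with a median of 0.15. A counting interval lay above 1 in 18 genes and below 1 in 4, against 33% and 15.4% of all genes. 0 of 32 reached 1.5-fold, against 0.774% of all genes higher and 0.356% lower. KLK3, the gene of prostate-specific antigen, stood at 23.9 FPKM in ESM1-NLS, 18.1 FPKM in ESM1-NES and 20.3 FPKM in Vector-2, giving a ratio of 1.32 (1.17 to 1.48), and lay 0.51 from like genes. KLK2, its neighbour, was at 47.8 FPKM in ESM1-NLS, 42.0 FPKM in ESM1-NES and 42.95 FPKM in Vector-2, giving a ratio of 1.14 (1.07 to 1.21), while KLK4, another kallikrein of the locus, had 230.3 FPKM in ESM1-NLS, 243 FPKM in ESM1-NES and 201 FPKM in Vector-2, giving a ratio of 0.949 (0.915 to 0.985). FKBP5, a chaperone cofactor induced by androgen, was at 277 FPKM in ESM1-NLS, 221 FPKM in ESM1-NES and 289 FPKM in Vector-2, giving a ratio of 1.25 (1.23 to 1.28). The 19 luminal markers had 12 above and 7 below like genes and a median of 0.05.

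Markers of other states were sparse. Of 17 basal markers 6 were measured, with 3 above and 3 below like genes. Among 9 measured mesenchymal genes TGFB2, a TGF-β ligand, was at 3.26 FPKM in ESM1-NLS, 1.67 FPKM in ESM1-NES and 2.94 FPKM in Vector-2, giving a ratio of 1.95 (1.63 to 2.34), and was the 1 past 1.5-fold. CDH2, N-cadherin, was at 3.12 FPKM in ESM1-NLS, 2.11 FPKM in ESM1-NES and 2.73 FPKM in Vector-2, giving a ratio of 1.48 (1.2 to 1.82), while the master factors ZEB1 and ZEB2 were at 0.06 FPKM or less in both forms. The list had 6 above and 3 below like genes and a median of 0.01. In the neuroendocrine list, 7 of 11 genes lay above like genes, and as measured in FPKM 8 lay above 0 and 3 below. CALCA was at 1.26 FPKM in ESM1-NLS, 2.79 FPKM in ESM1-NES and 1.71 FPKM in Vector-2, giving a ratio of 0.452 (0.248 to 0.799). That ratio rests on 20 reads in ESM1-NLS, against 37 in ESM1-NES. SCG5 was lower too, with a ratio of 0.718 (0.492 to 1.044). CHGA and DLL3 went the other way, with ratios of 1.302 (1.004 to 1.695) and 1.342 (0.979 to 1.849). The defining factors INSM1 and NEUROD1 were at 0.04 FPKM or less in both forms. Endothelial markers had 2 of 14 genes measured, with CDH5 and KDR at 0 in both forms, and summed to 8.1 FPKM in ESM1-NLS, 9.9 FPKM in ESM1-NES and 5.7 FPKM in Vector-2. Leukocyte markers had 2 of 14 measured and summed to 7.1 FPKM in ESM1-NLS, 5.1 FPKM in ESM1-NES and 5.0 FPKM in Vector-2, with CD3E and MS4A1 at 0 in both forms. LYZ, lysozyme, was the leukocyte gene past 1.5-fold, at 1.96 FPKM in ESM1-NLS, 0.64 FPKM in ESM1-NES and 1.18 FPKM in Vector-2. Fibroblast markers summed to 13.2 FPKM in ESM1-NLS, 13.3 FPKM in ESM1-NES and 10.7 FPKM in Vector-2, and kidney packaging line markers to 30.2 FPKM in ESM1-NLS, 29.1 FPKM in ESM1-NES and 29.6 FPKM in Vector-2.

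Several lists of mostly short transcripts lay low as measured and nearer to 0 against like genes. All 79 cytosolic ribosomal protein genes lay below 0 in FPKM and 77 of 79 in TPM, with a median of -0.28 as measured and -0.08 from like genes. Most still stood on the lower side after subtraction, with 75 of 79 below like genes and 4 above. RPS29, a small subunit protein, was at 1158 FPKM in ESM1-NLS, 1604 FPKM in ESM1-NES and 1519 FPKM in Vector-2, giving a ratio of 0.722 (0.698 to 0.746). Of 74 nuclear genes of oxidative phosphorylation 69 lay below 0 in FPKM and 63 in TPM, with a median of -0.29 as measured and -0.11 from like genes. After subtraction 61 of the 74 lay below like genes and 13 above. COX6B1, of cytochrome c oxidase, was at 328 FPKM in ESM1-NLS, 471 FPKM in ESM1-NES and 330.1 FPKM in Vector-2, giving a ratio of 0.697 (0.666 to 0.729). Mitochondrial ribosomal proteins had a median of -0.19 as measured and -0.06 from like genes, with 57 of 76 below like genes. Proteasome subunits had -0.14 as measured in FPKM, -0.01 in TPM and -0.06 from like genes, with 32 of 39 below. At the other end, 36 giant transcripts had a median of 0.03 as measured in FPKM and -0.05 with median-of-ratios scaling, lay -0.15 from like genes, and were higher in Vector-2 than in both forms in 36 of 36. Their medians were -0.47 for ESM1-NLS minus Vector-2 and -0.52 for ESM1-NES minus Vector-2, which share Vector-2. Among the short ribosomal protein genes Vector-2 lay between the forms in 56 of 79.

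Stress and signalling lists lay near like genes. Medians from like genes were -0.08 for 29 genes of the unfolded protein response, -0.02 for 25 of the ATF4 response, 0.01 for 27 heat shock proteins, 0.04 for 24 NRF2 genes, -0.02 for 32 of hypoxia and glycolysis, 0.00 for 27 of the interferon response and 0.02 for 7 NF-kB targets. In the unfolded protein response the chaperone gene HSPA5 was at 235 FPKM in ESM1-NLS, 249 FPKM in ESM1-NES and 226 FPKM in Vector-2, giving a ratio of 0.944 (0.925 to 0.964). MANF, a secreted protein induced by that stress, was at 168 FPKM in ESM1-NLS, 221 FPKM in ESM1-NES and 181 FPKM in Vector-2, giving a ratio of 0.761 (0.725 to 0.799). ERN1, EDEM1 and ATF6 of that list went the other way, with ratios of 1.51 (1.198 to 1.908), 1.35 (1.218 to 1.489) and 1.29 (1.194 to 1.383). As measured in FPKM, 15 of its 29 genes lay above 0 and 14 below, while 10 lay above and 19 below like genes. Medians from like genes were 0.06 for 15 YAP and TEAD targets, 0.02 for 16 TGF-β genes, 0.08 for 20 Notch genes and 0.00 for 14 receptor tyrosine kinases. The 7 measured genes of ESM1 partners and endocan biology all lay above genes of like length and GC content, with a median of 0.09. By length alone 5 lay above and 2 below, with a median of 0.05. Among the 7, HGF was at 29.04 FPKM in ESM1-NLS, 24.6 FPKM in ESM1-NES and 24.6 FPKM in Vector-2, giving a ratio of 1.18 (1.08 to 1.29). The 32 genes that build glycosaminoglycan chains had a median of -0.04 from like genes. The 15 proteoglycan core proteins, with ESM1 left out, had one of 0.01, and the 36 genes of secretory coats and receptors one of -0.06. Smaller shifts stood in the remaining lists. Medians from like genes were -0.04 for 20 cytosolic tRNA synthetases, 0.01 for 26 apoptosis regulators, 0.03 for 30 autophagy and lysosome genes, -0.02 for 9 integrin subunits, -0.03 for 43 splicing factors, -0.06 for 27 chromatin remodellers and -0.06 for 30 housekeeping genes. The list of metallothioneins, small metal-binding proteins with near-identical copies, also held the zinc transporter SLC30A1 and the metal-responsive factor MTF1. Of its 9 measured genes 8 lay above and 1, MTF1, below like genes, with a median of 0.21. Prostate long noncoding RNAs had a median of -0.12 as measured in FPKM, 0.01 in TPM and 0.08 from like genes. Histone genes reversed on subtraction, with a median of -0.04 as measured in FPKM, 0.09 in TPM and 0.13 from like genes. Their transcripts are short, near-identical in sequence and mostly without a poly(A) tail, so reads may be divided unevenly among them.

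The single genes farthest apart were ranked among protein-coding genes whose mean reached 5 FPKM. ZNF121, a zinc finger gene, stood highest at 8.91 FPKM in ESM1-NLS, 4.35 FPKM in ESM1-NES and 9.72 FPKM in Vector-2, giving a ratio of 2.05 (1.65 to 2.55). UBXN7, an adaptor of the p97 segregase, was at 13.3 FPKM in ESM1-NLS, 6.96 FPKM in ESM1-NES and 13.9 FPKM in Vector-2, giving a ratio of 1.92 (1.74 to 2.12). PANK3, which starts coenzyme A synthesis, was at 21.1 FPKM in ESM1-NLS, 11.7 FPKM in ESM1-NES and 24.7 FPKM in Vector-2, giving a ratio of 1.81 (1.65 to 1.98). For these 3 genes ESM1-NES was the library that stood apart. RC3H2, DDI2, TMED8 and ZBED6 had ratios of 1.86 (1.68 to 2.06), 1.82 (1.6 to 2.09), 1.86 (1.42 to 2.45) and 1.75 (1.48 to 2.09). CDYL2, a chromodomain protein, was at 19.3 FPKM in ESM1-NLS, 11.6 FPKM in ESM1-NES and 18.6 FPKM in Vector-2, giving a ratio of 1.66 (1.48 to 1.86). ZBTB16, the transcription factor PLZF, which androgen induces in prostate cells, was at 20.9 FPKM in ESM1-NLS, 13.2 FPKM in ESM1-NES and 20.6 FPKM in Vector-2, giving a ratio of 1.58 (1.43 to 1.76). MSI2, an RNA-binding protein of stem cells, was at 18.7 FPKM in ESM1-NLS, 12.3 FPKM in ESM1-NES and 21.7 FPKM in Vector-2, giving a ratio of 1.53 (1.33 to 1.75). CYP4F8, a cytochrome P450, was at 17.9 FPKM in ESM1-NLS, 11.3 FPKM in ESM1-NES and 13.1 FPKM in Vector-2, giving a ratio of 1.58 (1.39 to 1.80). H3F3A and SRGAP2C, with ratios of 1.69 (1.55 to 1.84) and 1.64 (1.44 to 1.87), have near-identical copies and are uncertain.

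At the lower end PRAC2, a small gene of prostate and colon, was at 31.2 FPKM in ESM1-NLS, 54.4 FPKM in ESM1-NES and 41.0 FPKM in Vector-2, giving a ratio of 0.574 (0.496 to 0.663). CCDC167 was at 62.9 FPKM in ESM1-NLS, 105 FPKM in ESM1-NES and 71.2 FPKM in Vector-2, giving a ratio of 0.601 (0.545 to 0.662). CENPM, a kinetochore protein, was at 24.3 FPKM in ESM1-NLS, 39.7 FPKM in ESM1-NES and 26.1 FPKM in Vector-2, giving a ratio of 0.612 (0.541 to 0.692). All 3 are short transcripts of under 1000 bases, the class that was lower as a whole, and lay -0.55, -0.49 and -0.42 from like genes. APOC1, ABHD14A, GCHFR and ROMO1 had ratios of 0.605 (0.487 to 0.748), 0.611 (0.469 to 0.798), 0.654 (0.593 to 0.721) and 0.660 (0.598 to 0.727). After length and GC content were taken into account, INSIG1 and MKI67 joined the lowest 10, with SLC27A5, a bile acid ligase, at a ratio of 0.633 (0.535 to 0.748), MMAB, of cobalamin metabolism, at 0.726 (0.673 to 0.783), PSMA5, a proteasome subunit, at 0.794 (0.757 to 0.833) and C3orf14 at 0.737 (0.637 to 0.852). The effective length of C3orf14 was 3366 bases in ESM1-NLS, against 2931 bases in ESM1-NES, and its ratio in depth-scaled counts was 0.846. RPL21, CFC1 and NUDT4P1 have near-identical copies and are uncertain, with ratios of 0.640 (0.624 to 0.656), 0.621 (0.516 to 0.742) and 0.655 (0.607 to 0.706).

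Vector-2 lay nearer to ESM1-NLS than to ESM1-NES in 12 of the 14 highest and in 10 of the 16 lowest genes. Over the wider set it lay nearer to ESM1-NLS in 84 of the 100 genes that were 1.5-fold higher and in 26 of the 46 that were 1.5-fold lower, against 8535 of all 12915 genes. These counts share the libraries that chose the genes, so they describe which form stood apart and test nothing.

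**Figure D5:**
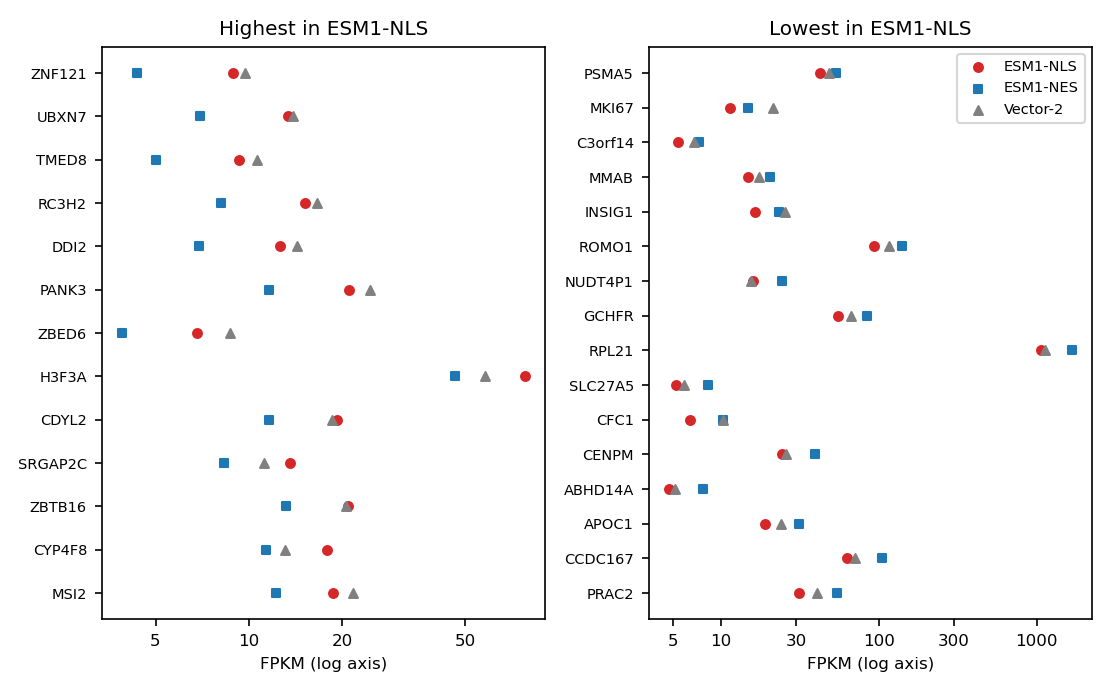
Points are FPKM on a log axis in ESM1-NLS as red circles, ESM1-NES as blue squares and Vector-2 as grey triangles, for genes among the 14 highest in ESM1-NLS on the left and the 16 lowest on the right. On the left the grey triangle lies by the red circle in most rows, as for ZNF121 at 8.91 FPKM in ESM1-NLS, 4.35 FPKM in ESM1-NES and 9.72 FPKM in Vector-2.

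The 2-fold set of 18 genes held few ordinary genes. It had 3 protein-coding genes and 0 with a mean of 5 FPKM or more, and 2 of the 18 are Y-linked and are not described. Readthrough loci, which share exons with 2 neighbouring genes, went both ways. SPECC1L-ADORA2A was at 2.02 FPKM in ESM1-NLS, 0.18 FPKM in ESM1-NES and 2.40 FPKM in Vector-2, EEF1E1-BLOC1S5 at 2.29 FPKM in ESM1-NLS, 0 FPKM in ESM1-NES and 3.18 FPKM in Vector-2, and ATP6V1G2-DDX39B at 0.20 FPKM in ESM1-NLS, 2.54 FPKM in ESM1-NES and 0.67 FPKM in Vector-2. GPR75-ASB3 was at 2.06 FPKM in ESM1-NLS, 0.01 FPKM in ESM1-NES and 2.46 FPKM in Vector-2. CFC1B, a copy of CFC1, was at 4.68 FPKM in ESM1-NLS, against 1.01 FPKM in ESM1-NES, while CFC1 had 6.44 FPKM in ESM1-NLS, against 10.4 FPKM in ESM1-NES, so that the pair went opposite ways. Small RNAs of the set, such as SNORA50C with 2 reads in ESM1-NLS, against 7 in ESM1-NES, rest on a few reads.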

How the data were processed

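Total RNA of 22Rv1 cells was sequenced in 5 libraries, 1 per group, with groups taken from the sample titles. Per the submitters' processing notes, the authors worked with RSEM, Bowtie2 and Trimmomatic, and with the build hg19. Their versions and the strandedness are not given in the sources used here. Reads of overlapping and antisense genes may therefore not be separable. The table used holds expected counts, TPM and FPKM as deposited by the authors, per the file headers, for ESM1-NLS, ESM1-NES and Vector-2. The table of Vector-1 and ESM1 was not analysed here. Members and lists were chosen with earlier results of these data known.

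The measure was the difference of log2(FPKM + 1), ESM1-NLS minus ESM1-NES, in genes with a mean FPKM of 1 or more. Each FPKM ratio has an exact 95% interval, a Clopper-Pearson interval of the binomial share of reads (SciPy 1.17.1), on expected counts rounded to whole numbers. Intervals and limits cover counting error only. Effective length was derived from FPKM and expected counts. GC content came from GENCODE release 29 transcripts and covered 97.7% of the genes, and 25328 symbols matched RefSeq of GRCh38.p14. That build differs from hg19 and served for names, GC content and promoters. Procedures were checked on simulated counts with a planted length trend and large planted changes in single genes. No GC trend and no small shift of whole lists was planted, so that check does not cover the list medians. Genes were named by a rule: ESM1 and 11 Wnt, stem cell and prostate genes, the 10 highest and 10 lowest protein-coding genes whose mean reached 5 FPKM, before and after length and GC content, and up to 4 members of each of 57 lists. Further members were named to fill out the lists after their values were seen. Y-linked genes and readthrough loci were left out of that ranking. Alternatives were TPM, median-of-ratios scaling, pseudocounts of 0.1 and 5, other filters and subtraction of genes of like length, without or with GC content. Single values of some list members are not reported here.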

Additional observations from a re-analysis of the deposited data

How the results depend on the processing

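Main counts, higher and lower in ESM1-NLS, were 7 and 11 genes at 2-fold, 100 and 46 at 1.5-fold, and 94 and 36 at 1.5-fold with a counting interval that left out 1. TPM gave 30 higher at 2-fold, 375 higher at 1.5-fold, 354 higher with the interval, and a median of all genes of 0.19. Median-of-ratios scaling gave 57 and 84 at 1.5-fold and 51 and 67 with the interval. A pseudocount of 0.1 gave 38 and 26 at 2-fold, 274 and 110 at 1.5-fold, and 240 and 68 with the interval. A pseudocount of 5 gave 0 and 0, 9 and 7, and 9 and 6. Without a filter 27 were 2-fold higher, and 153 and 78 were 1.5-fold apart. With a mean of 5 FPKM or more the counts were 0 and 0, 36 and 11, and 36 and 10. Protein-coding genes gave 3 and 0 at 2-fold, 21 lower at 1.5-fold and 21 lower with the interval. Subtracting genes of like length gave 17 and 7 at 2-fold, 23 lower at 1.5-fold and 16 lower with the interval. With GC content as well it gave 14 and 1, 12 lower and 12 lower. The gap between genes over 8000 bases and those up to 1000 bases, 0.45, was 0.33 with a pseudocount of 5, 0.31 without a filter, 0.015 after subtraction by length, and 0.015 with GC content, which that subtraction is built to remove. Counts at 2-fold thus rest on low genes. Relative to the median of all genes, 3 list medians reversed: histone genes went to 0.15 by length and 0.13 with GC content, prostate long noncoding RNAs to 0.069 and 0.077, and import receptors to -0.0017 with GC content. A further 9 list medians moved by 0.1 or more without reversing after subtraction by length, and 9 did so with GC content. No list of 54 reversed or moved by 0.1 under TPM, median-of-ratios scaling or either pseudocount. For TPM and median-of-ratios scaling that outcome was nearly fixed in advance. Each multiplies every ratio by a constant, which all but cancels against the median of all genes. TPM moved the ratios of 119 of 243 named genes out of their counting intervals. No paired analysis was possible because each group has 1 library, and for the same reason no replicate could be left out. Ratios of genes near 1 FPKM rest on few reads, and differences within their intervals were not detectable at this depth.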

Other observations

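Pathways in the KEGG annotation of the authors' deposited table were read the same way, for 201 pathways with 10 or more genes, as values with no test. Terpenoid backbone synthesis, which supplies the sterol pathway, lay lowest, with 0 of 14 genes above and 14 below genes of like length and GC content and a median of -0.20. Steroid biosynthesis followed with 12 of 17 below and a median of -0.18, DNA replication with 34 of 35 below and -0.16, and mismatch repair with 20 of 22 below and -0.15. These pathways share genes with the lists described above and are not independent of them. At the other end steroid hormone biosynthesis had 14 of 20 genes above and a median of 0.06. Wnt signalling, with 108 genes, had 59 above and 49 below and a median of 0.01. The p53 signalling pathway, with 63 genes, had 36 above and 27 below and a median of 0.02. The list of p53 targets described above lay farther from like genes, with 26 of 31 above and a median of 0.16.

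Genes named as zinc fingers were taken as a class after their values were seen. Of 424 such genes 354 lay above 0 and 276 above genes of like length and GC content, with medians of 0.17 as measured and 0.06 from like genes. The 204 SLC genes, 169 TMEM genes and 46 KIAA genes had medians of -0.01, -0.00 and -0.01 from like genes.

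The mix of isoforms, as the estimated effective length shows it, differed by over 10% between the forms in 91 of 12280 genes with 50 or more reads in each library, or 0.741%. In these genes FPKM and read counts give unlike ratios. ADAM22, a synaptic adhesion protein, had an effective length of 7142 bases in ESM1-NLS and 9172 bases in ESM1-NES, and a ratio of 1.45 in FPKM but 1.13 in depth-scaled counts. DMC1, a meiotic recombinase, had 1716 bases in ESM1-NLS and 987 bases in ESM1-NES, and a ratio of 0.501 in FPKM but 0.871 in depth-scaled counts.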
